A study of Talpa occidentalis and Mus musculus with 35 samples.

Results

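Of the secreted paracrine FGF ligands outside the FGF9 branch, 10 were described: FGF1, FGF4, FGF5, FGF6, FGF7, FGF8, FGF10, FGF17, FGF18 and FGF22. Their values were taken from the gene annotation of the Iberian mole, Talpa occidentalis, assembly talOcc3. FGF2 and FGF3 are also paracrine, were not among the 10 and had no locus under their names. A member was a gene line whose name, without a copy or low-confidence suffix, was 1 of these 10 symbols. The rule used no measured value, and it found 10 of the 16196 symbols in the file, each on exactly 1 line. The 35 libraries of the series were polyadenylated RNA from gonads, 19 from wild-type moles (at embryonic day 15 ovotestis and testis, then at postnatal day 7 and in adults the testis and, sampled apart, the ovarian and testicular parts) and 16 from mice (CD1 ovary and testis at embryonic day 13.5, postnatal day 7 and 10 weeks, and E13.5 ovaries of B6 mice, either wild type or carrying an Fgf9 mutation). No value of the file belongs to a library, so the level of these ligands in any gonad was not analysed here and the depth is unknown. The values below are lengths, positions and alignment scores of gene models, which have no replicates, and they are described without a test.

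Paracrine fibroblast growth factors are secreted proteins that bind heparan sulfate on the cell surface and, together with it, bring receptor tyrosine kinases of the FGFR family into active pairs. They share a folded core of short strands, and the parts before and after it differ between subfamilies. FGF1 binds all the FGF receptors and lacks a classical signal peptide. FGF4, FGF5 and FGF6 form a subfamily in which FGF4 serves the early embryo and limb, FGF5 ends the growth phase of the hair cycle and FGF6 is expressed in muscle. FGF7, FGF10 and FGF22 are made largely by mesenchyme and act on epithelia, FGF10 being required for limb and lung buds. FGF8, FGF17 and FGF18 pattern the midbrain, limb and skeleton.

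The ligand genes share a short internal coding exon, and the results turn on it. It was taken as the second-last coding exon of the mouse transcript and is called the core exon or core part. It is shown here from the mouse, since no mole sequence was used. The mouse exons come from the transcripts of GENCODE M21 (GRCm38), printed 5′ to 3′ on the coding strand, 1 principal transcript per gene. In the FGF4/5/6 and FGF7/10/22 subfamilies this exon had 104 bases, at chr7:144862232-144862335 (plus strand), chr5:98261943-98262046 (plus), chr6:127016994-127017097 (plus), chr2:126088235-126088338 (plus), chr13:118781506-118781609 (plus) and chr10:79756580-79756683 (plus). Capitals mark the 27 positions, 26% of the exon, at which all 6 sequences carried the same base.
Fgf4: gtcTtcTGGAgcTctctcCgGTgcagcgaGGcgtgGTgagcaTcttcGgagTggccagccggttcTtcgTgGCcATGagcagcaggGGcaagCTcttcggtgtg
Fgf5: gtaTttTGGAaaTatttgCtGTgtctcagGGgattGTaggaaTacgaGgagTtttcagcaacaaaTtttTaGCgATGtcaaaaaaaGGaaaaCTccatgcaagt
Fgf6: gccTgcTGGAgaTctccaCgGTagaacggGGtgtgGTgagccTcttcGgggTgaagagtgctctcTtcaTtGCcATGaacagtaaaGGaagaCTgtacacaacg
Fgf7: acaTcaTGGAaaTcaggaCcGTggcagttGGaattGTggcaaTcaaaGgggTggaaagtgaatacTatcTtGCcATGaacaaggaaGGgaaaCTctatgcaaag
Fgf10: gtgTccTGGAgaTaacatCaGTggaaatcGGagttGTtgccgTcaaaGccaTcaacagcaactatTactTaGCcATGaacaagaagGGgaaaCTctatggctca
Fgf22: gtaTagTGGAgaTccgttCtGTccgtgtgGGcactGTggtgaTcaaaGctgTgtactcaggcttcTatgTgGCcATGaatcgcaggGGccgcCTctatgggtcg
In the FGF8/17/18 subfamily the exon had 107 bases, at chr19:45738118-45738224, chr14:70638467-70638573 and chr11:33124613-33124719, all on the minus strand. Capitals here mark the 65 positions, 60.7% of the exon, shared by these 3 sequences, with a longest shared run of 8 bases.
Fgf8: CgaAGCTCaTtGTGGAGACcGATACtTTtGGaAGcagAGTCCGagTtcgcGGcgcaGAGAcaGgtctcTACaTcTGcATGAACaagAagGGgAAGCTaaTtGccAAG
Fgf17: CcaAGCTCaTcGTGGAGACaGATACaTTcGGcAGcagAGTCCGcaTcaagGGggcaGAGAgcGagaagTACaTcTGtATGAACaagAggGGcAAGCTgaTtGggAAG
Fgf18: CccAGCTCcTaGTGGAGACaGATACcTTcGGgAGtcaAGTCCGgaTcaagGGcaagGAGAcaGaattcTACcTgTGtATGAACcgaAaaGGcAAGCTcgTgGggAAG
Mouse Fgf1 also had a 104-base exon and is not printed.

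Pairs within a subfamily were more alike in this mouse exon than most pairs across subfamilies. Identity within subfamilies had a median of 64.4% over 9 pairs (48.1 to 75.7%), against 47.6% over 36 pairs across them (36.5 to 59.6%). An exon of 104 bases was set against 1 of 107 with a single gap of 3 bases placed where identity was highest. FGF8/17/18 was the most uniform subfamily, with 75.7% between Fgf8 and Fgf17, 72.9% between Fgf17 and Fgf18, and 66.4% between Fgf8 and Fgf18. In FGF7/10/22 the pair Fgf7 and Fgf10 reached 64.4%, and Fgf22 stood at 56.7% to Fgf7 and 55.8% to Fgf10. FGF4/5/6 was uneven: Fgf4 and Fgf6 shared 65.4%, whereas Fgf5 shared 49.0% with Fgf4 and 48.1% with Fgf6. Fgf5 was closer to Fgf7 of the neighbouring subfamily, at 57.7%, than to its own partners in this exon. Fgf22 was as close to Fgf4, at 56.7%, as to Fgf7, and closer to Fgf4 than to Fgf10. These pairs share sequences and are not independent of each other.

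Most mole models had a coding part of the same length as the mouse core exon. A coding part of 104 bases stood in the models of FGF1, FGF5, FGF6, FGF7, FGF10 and FGF22, and a coding part of 107 bases in those of FGF8, FGF17 and FGF18, so that 9 of 10 ligands had the mouse length exactly. A part of 104 bases at any position occurred in 5.71% of named genes and 1 of 107 in 6.06%. Such shares, here and below, count these lengths in any gene without regard to the mouse. The share of all genes that keep the length of their own mouse exon was not computed. In 8 of the 10 the part was internal. Over all 16196 named genes, 5.19% had an internal coding part of 104 bases and 5.53% had 1 of 107. The reading frame was shared too: in the 9 models, as in all 10 mouse transcripts, the bases before this part left 1 base of a codon over. An internal part of 104 bases in that frame occurred in 2.15% of named genes and 1 of 107 in 2.34%. FGF4 was the exception in length. Its model began with a part of 129 bases, of which the last 104 were aligned to the reference transcript and the leading 25 were not, and this part was taken as its core part. In the other 9 models the part was picked by its length alone, and alignment was not used to find it. The aligned bases equalled the core length in 8 of the 10 ligands, FGF4 among them. In FGF22 96 of the 104 bases were aligned, and in FGF5 none were.

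The 104-base length was not particular to these subfamilies. All 9 other FGF genes with a locus in the file also had a part of 104 bases, always the second of the model. They were FGF9, FGF16 and FGF20, the intracellular homologous factors FGF11, FGF12, FGF13 and FGF14, and the hormones FGF21 and FGF23. None of these 9 had a part of 107 bases. Among the FGF genes analysed here the longer exon was found in FGF8, FGF17 and FGF18 alone.

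**Figure D1:**
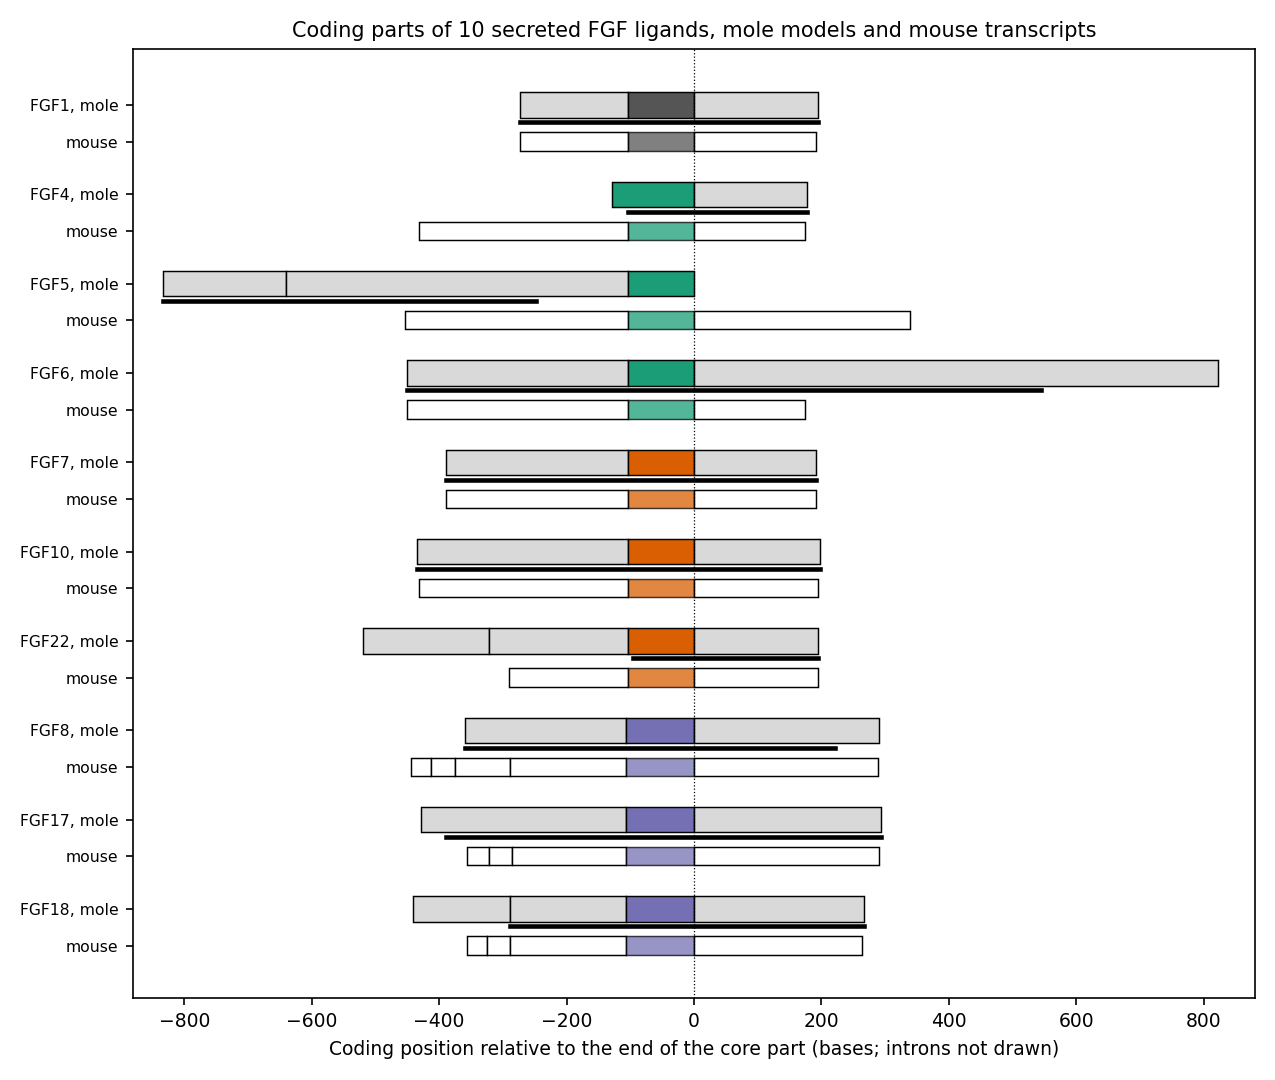
Coding parts of each ligand in the mole (upper bar) and in the mouse principal transcript (lower bar), lined up at the end of the core part, which is coloured by subfamily; the x axis is coding position in bases, and the black line is the interval of the mole model aligned to its reference transcript. The core part has 104 bases in FGF1 and in the FGF4/5/6 and FGF7/10/22 subfamilies and 107 in FGF8/17/18, FGF4 starts with 129 bases, FGF5 ends with the core part and FGF6 runs on for 822 bases after it.

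What followed the core part was also of mouse length in most models. The next coding part was 3 bases longer than in the mouse in FGF1, FGF4, FGF10, FGF8, FGF17 and FGF18, and equal to it in FGF7 and FGF22, which makes 8 of 10. The share of all genes with such a match was not computed. GENCODE leaves the 3 bases of the stop codon out of its coding parts, and whether the mole file includes them was not tested on sequence. The exceptions were FGF5, whose model ended with the core part, and FGF6, whose last part had 822 bases against 174 in the mouse.

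FGF1, the ligand that binds every FGF receptor, had the same part lengths as its mouse gene up to the last 3 bases. It lay on talOcc3 scaffold 3 from 51626611 to 51647088 on the plus strand, with coding parts of 169, 104 and 195 bases and a coding length of 468 bases. The mouse parts were 169, 104 and 192 bases. The aligned interval covered 100% of the coding length, and the deposited score was 719, or 1.54 per aligned base of the reference transcript. The unit of the score is unknown here, and each of the 10 ligands carried the highest score of its symbol.

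The FGF4/5/6 subfamily held the shortest and the longest of the 10 models. FGF4, the ligand of the early embryo, lay on scaffold 18 from 1638318 to 1639042 on the plus strand with 2 parts of 129 and 177 bases. Its coding length was 306 bases, with 2.93% of named genes shorter, and decreased by 300 bases from the 606 of the mouse, where a part of 328 bases comes before the core part. The reference interval of 281 bases matched the last 281 bases of the model, which have the lengths of the core exon, 104, and of the last part, 177.

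FGF5, the hair-cycle ligand, lay on scaffold 10 (minus strand, 17540450 to 17548528). Its parts were 194, 536 and 104 bases, in a coding length of 834 bases, against 349, 104 and 339 bases in the mouse. The aligned interval ended 248 bases before the end of the model, so it did not reach the core part, in which 0 of 104 bases were aligned. FGF5 was the only 1 of the 10 models with no aligned base in this part. An intron of 69 bases separated its leading parts, the shortest intron of the 10 models.

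FGF6, the muscle ligand, lay on scaffold 34 from 5228423 to 5232766 on the plus strand, with parts of 346, 104 and 822 bases. The leading parts had the mouse lengths, 346 and 104. The last part was 648 bases longer than in the mouse, which took the coding length to 1272 bases, against 624 in the mouse. Its aligned interval ended 277 bases before the end of the model, and 995 model bases were set against 1156 bases of the reference transcript. The score per aligned base was 0.57, the lowest of the 10 ligands, with 5.77% of named genes below it.

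The FGF7/10/22 subfamily contained 2 complete models and 1 that was aligned over less than its length. FGF7, a mesenchymal ligand for epithelia, lay on scaffold 16 (minus strand, 20313285 to 20363732) and had parts of 286, 104 and 192 bases, the same as in the mouse. It was the 1 ligand labelled exonerate, and the other 9 were labelled EVM, as were 81.3% of named genes. FGF10, the ligand of limb and lung buds, lay on scaffold 8 (minus strand, 22395554 to 22466721). Its parts of 331, 104 and 198 bases compare with 328, 104 and 195 in the mouse. The aligned share of the coding length was 99.8% in FGF7 and 100% in FGF10.

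FGF22 lay on scaffold 14 from 5113588 to 5115033 on the plus strand and had 4 parts of 198, 217, 104 and 195 bases, against 187, 104 and 195 in the mouse. The leading 423 bases of its 714 coding bases were not aligned, and 40.8% was aligned, the smallest share of the 10 ligands; 3.48% of named genes had a smaller share. The aligned interval held 96 of the 104 core bases and the whole last part. The score per aligned base was 1.03, below the median of named genes. In FGF22, as in FGF4, no base before the core exon was aligned.

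In the FGF8/17/18 subfamily the last parts matched the mouse and the leading parts did not. FGF8, the organizer ligand of midbrain and limb, lay on scaffold 11 (minus strand, 44273038 to 44277604) with parts of 253, 107 and 291 bases. FGF17 lay on scaffold 1 from 79313385 to 79315860 on the plus strand with 322, 107 and 294 bases. FGF18, a ligand of growing bone and cartilage, lay on scaffold 2 from 67660033 to 67681313 on the plus strand with 153, 181, 107 and 267 bases. The mouse transcripts split the stretch before the core part into more exons: 32, 37, 87 and 181 bases in Fgf8, 35, 37 and 178 in Fgf17, and 32, 37 and 181 in Fgf18. No mole model had a part of 32, 35, 37 or 87 bases. The mouse part of 181 bases just before the core was present at that length in mole FGF18, while FGF8 had 253 bases there and FGF17 had 322.

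The unaligned stretches of this subfamily lay at different ends. In FGF8 the last 70 of 651 bases were outside the aligned interval. In FGF17 the leading 40 of 723 bases were, and in FGF18 the leading 152 of 708 bases, which is its 153-base part less 1 base. The whole core part was aligned in each of the 3.

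Set side by side, the subfamilies had medians of similar coding length, all under that of named genes. The median was 834 bases in FGF4/5/6, 633 in FGF7/10/22 and 708 in FGF8/17/18, with 468 in FGF1, against 1308 over all named genes. All 10 ligands were below that median, a description of the models, since proteins were not examined. The spread within a subfamily exceeded the distance between subfamilies in FGF4/5/6, whose members ran from 306 to 1272 bases, while FGF8/17/18 ran only from 651 to 723. In the mouse the FGF4/5/6 members ran from 606 to 792 bases and those of FGF8/17/18 from 621 to 732. Exactly 3 coding parts stood in 7 of 10 ligands and in 6.85% of named genes. Coding length was a multiple of 3 in all 10, as it was in 93.2% of named genes.

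The model was aligned over its whole coding length in FGF1 and FGF10 and nearly so in FGF7. No model of FGF4/5/6 or FGF8/17/18 was aligned as fully, the highest share there being 94.5% in FGF17. This share is of the model itself, and the covered share of the reference transcript was not computed. FGF4 had 91.8% aligned although its model had no part before the core part. An aligned share of at least 99% was reached by FGF1, FGF7 and FGF10, that is 3 of 10, against 41.1% of the 16190 named genes with an interval. The medians were 78.2% in FGF4/5/6, 99.8% in FGF7/10/22 and 89.2% in FGF8/17/18, against 96.7% in named genes. Per aligned base, 8 of 10 ligands scored above the median of named genes, 1.25. The FGF4/5/6 median was 1.11 times the named-gene median on this scale and 0.947 times, thus below it, when the score was divided by coding length instead. FGF8 reached 1.59, FGF10 1.56, FGF1 1.54 and FGF18 1.53, followed by FGF17 at 1.51, FGF5 at 1.497, FGF7 at 1.49 and FGF4 at 1.39, and FGF22 and FGF6 were below the median. The score and the aligned share did not run together in every model, since FGF5 and FGF18 had high scores per aligned base with 70.3 and 78.5% aligned. In FGF1 and FGF10 both were high, and in FGF22 both were low. No association over the 10 models was computed.

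**Figure D2:**
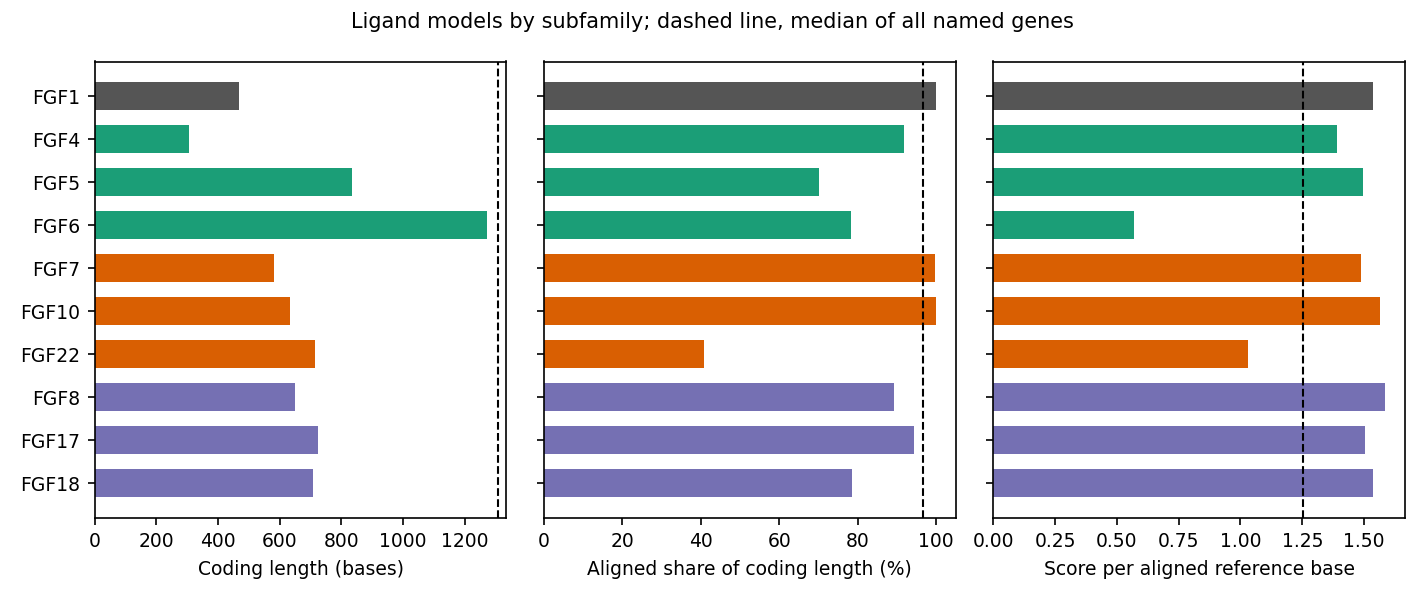
Coding length in bases, aligned share of the coding length in percent and score per aligned base of the reference transcript for each mole ligand model, coloured by subfamily, with the median of all named genes as a dashed line. All 10 bars end below the coding length median of 1308 bases, FGF22 has the smallest aligned share at 40.8%, and FGF6 has the lowest score per aligned base at 0.57.

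Intron lengths divided the ligands far more than coding lengths did. The introns of a model summed to 70.5 kb in FGF10 and 49.9 kb in FGF7, which exceeds the sums of 88.4 and 82.8% of the 14777 named genes with an intron. They summed to 20.6 kb in FGF18 and 20.01 kb in FGF1, above 61.1 and 60.1% of those genes, whose median was 13.8 kb. The sums were 7.245 kb in FGF5, 3.92 kb in FGF8, 3.07 kb in FGF6 and 1.75 kb in FGF17. The FGF5 model ended at the core part and so lacked the intron after it, which had 13164 bases in the mouse. FGF22 had 0.732 kb and FGF4 0.419 kb, with 3.83 and 2.08% of named genes below. The FGF4 model had no intron before the core part, where the mouse had 1 of 399 bases. Subfamily did not fix the scale: FGF7/10/22 held both the longest sum and 1 of the shortest, and FGF8/17/18 spanned 1.75 to 20.6 kb.

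The length of the single intron before the core part made most of this range. It was 65.6 kb in FGF10, 48.8 kb in FGF7, 15.0 kb in FGF1 and 11.5 kb in FGF18, and 7.18 kb in FGF5, 3.06 kb in FGF8, 0.908 kb in FGF6, 0.233 kb in FGF17 and 0.081 kb in FGF22. In the mouse the same intron measured 65.8 kb in Fgf10, 52.2 kb in Fgf7, 11.4 kb in Fgf1, 9.48 kb in Fgf18, 7.18 kb in Fgf5, 3.27 kb in Fgf8, 1.06 kb in Fgf6, 0.228 kb in Fgf17 and 1.27 kb in Fgf22. Of these 9 introns, that of FGF22 alone differed by more than 1.5 times. In FGF5 they were 7176 and 7182 bases, while the part before this intron had 536 bases in the mole and 349 in the mouse.

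Over both sides of the core part, 18 of 20 introns had a length in both species and 14 of these differed by at most 1.5 times. The same share over the introns of all genes was not computed. The median ratio of the longer to the shorter was 1.06, and 9 of the 18 were shorter in the mole. Across these 18 introns Pearson's r of the log10 lengths was 0.92, given as a description, since introns of a gene share their locus. The 4 beyond 1.5 times were both introns of FGF22 (81 against 1274 bases before the core part and 192 against 80 after it), the intron after the core part of FGF6 (2164 against 6883 bases) and that of FGF10 (4941 against 7509 bases, 1.52 times). FGF6 was thus apart from the mouse in both its last part and the intron before that part.

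**Figure D3:**
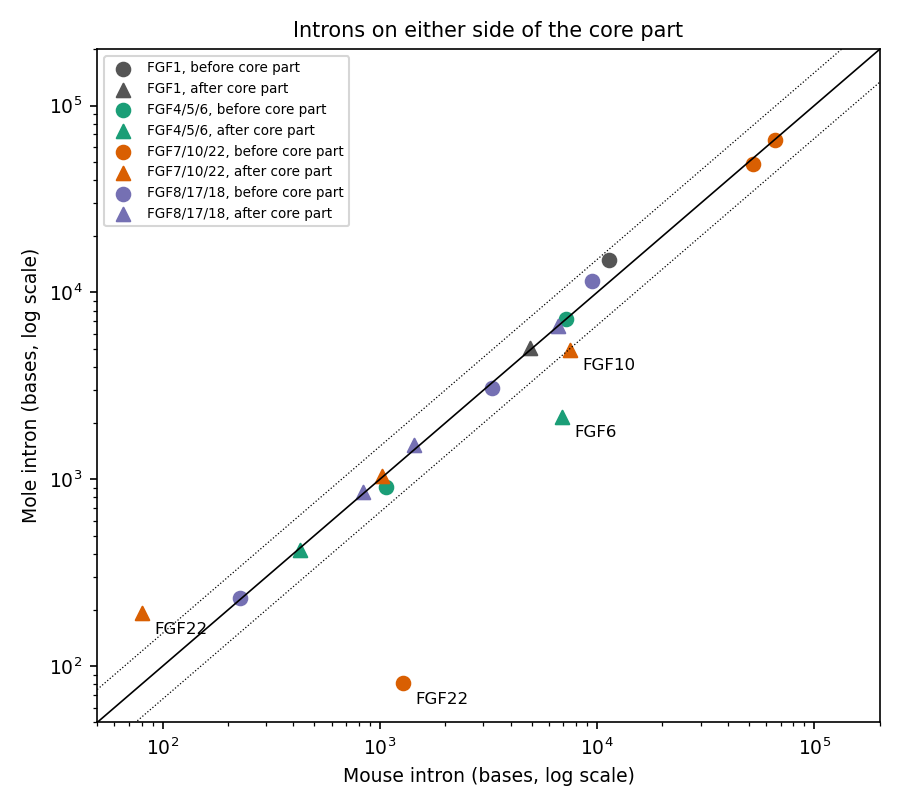
Length of the intron before (circles) and after (triangles) the core part in the mole against the mouse, in bases on log scales, coloured by subfamily; the solid line is equality and the dotted lines are 1.5 times longer or shorter. Of 18 introns, 14 lie within the dotted lines, and the named points are FGF22 on both sides and FGF6 and FGF10 after the core part.

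The ligands also differed in the distance to their neighbours. Distances were measured from the gene line to the nearest locus that does not overlap it, on each side. FGF10 had 260 kb before its first coding part and 319 kb after its last, FGF1 had 239 and 259 kb, and FGF5 had 64.9 and 261 kb. FGF18 had 17.3 kb before and 309 kb after. FGF8 had 6.05 kb to NPM3 before and 78.6 kb to FBXW4 after. At the other end FGF22 lay 5.425 kb from POLRMT, the mitochondrial RNA polymerase gene, and 2.75 kb from RNF126. The sides summed to more than the named-gene median of 49.8 kb in 9 of 10 ligands, with FGF22 below it and FGF17, at 50.4 kb, close to it. The mouse sums were 24.2 kb for Fgf17 and 52.3 kb for Fgf4, beside a median of 51.5 kb for mouse coding genes. Npm2 and Fgf3, next to them in the mouse, had no locus of that name beside them in the mole. The sum was wider in the mole in 6 of 10 ligands. In the mouse the subfamily medians were 89.3 kb in FGF4/5/6, 117 kb in FGF7/10/22 and 82.5 kb in FGF8/17/18. The mole medians were 216 kb in FGF4/5/6, which is the value of FGF4, 105 kb in FGF7/10/22 and 84.7 kb in FGF8/17/18. The range within FGF7/10/22 alone, from 8.17 kb at FGF22 to 579 kb at FGF10, was wider than the distance between these mole medians.

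Many distances were close to those of the mouse, with exceptions also on sides where the neighbour had the same name. The nearest locus bore the mouse name on 13 of 20 sides, and on both sides in FGF1, FGF22, FGF8 and FGF18. The share over all genes was not computed, here or for the summed space below. Fgf8 had 5.49 kb to Npm3 and 77.0 kb to Fbxw4, Fgf22 had 8.57 kb to Polrmt and 2.13 kb to Rnf126, and Fgf18 had 5.54 kb to Npm1 and 293 kb to Smim23. Fgf1 had 135 kb to Arhgap26 and 251 kb to Spry4, a gene for an inhibitor of FGF signalling. Of the 13 sides with a neighbour of the same name, 4 differed by more than 1.5 times. The mole distances to ARHGAP26, 239 kb, and to NPM1, 17.3 kb, were longer than in the mouse. Those from FGF22 to POLRMT, 5.425 against 8.57 kb, and from FGF10 to NNT, 319 against 547 kb, were shorter. Only names were compared, so a gene named differently in the mouse was not counted among the 13. Before FGF6 the mole had C12orf4 at 21.4 kb and the mouse D6Wsu163e at 40.4 kb. Whether these are the same gene was not tested. In 6 of 10 ligands the summed space was within 1.5 times the mouse value, and FGF10, at 579 against 875 kb, was just beyond it. The other 3 were FGF4, with 216 against 52.3 kb, FGF5, with 326 against 122 kb, and FGF17, with 50.4 against 24.2 kb.

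In each of these 3 ligands 1 side was wider than in the mouse, and its nearest locus bore another name than in the mouse. FGF4 also had another name on its other side, where the distance was close to that of the mouse. On the wide side of FGF4 the nearest mole locus was ANO1 at 182 kb, a model of 5 parts and 900 coding bases. The mouse had Fgf3 at 18.5 kb there. FGF3 had no locus under its name in talOcc3, and no other model, named or not, stood in the interval. After FGF4 the mole had a model named ORAOV1 at 33.6 kb, with 37.5% of the highest score of that symbol, and the mouse had Fgf15, the counterpart of FGF19, at 33.7 kb. FGF19 had no locus under its name either. In the later mole assembly MPIMG_talOcc4v2.1, FGF3 and FGF19 were the protein-coding genes on either side of FGF4. After FGF5 the nearest mole locus was a single-part model named RPL4 at 261 kb, where the mouse had Cfap299 at 53.8 kb and the later mole assembly had CFAP299. Before FGF17 the mole had a model named XPO7 at 32.3 kb, a copy with 72.2% of the highest score of that symbol. The mouse and the later mole assembly had NPM2 in between.

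**Figure D4:**
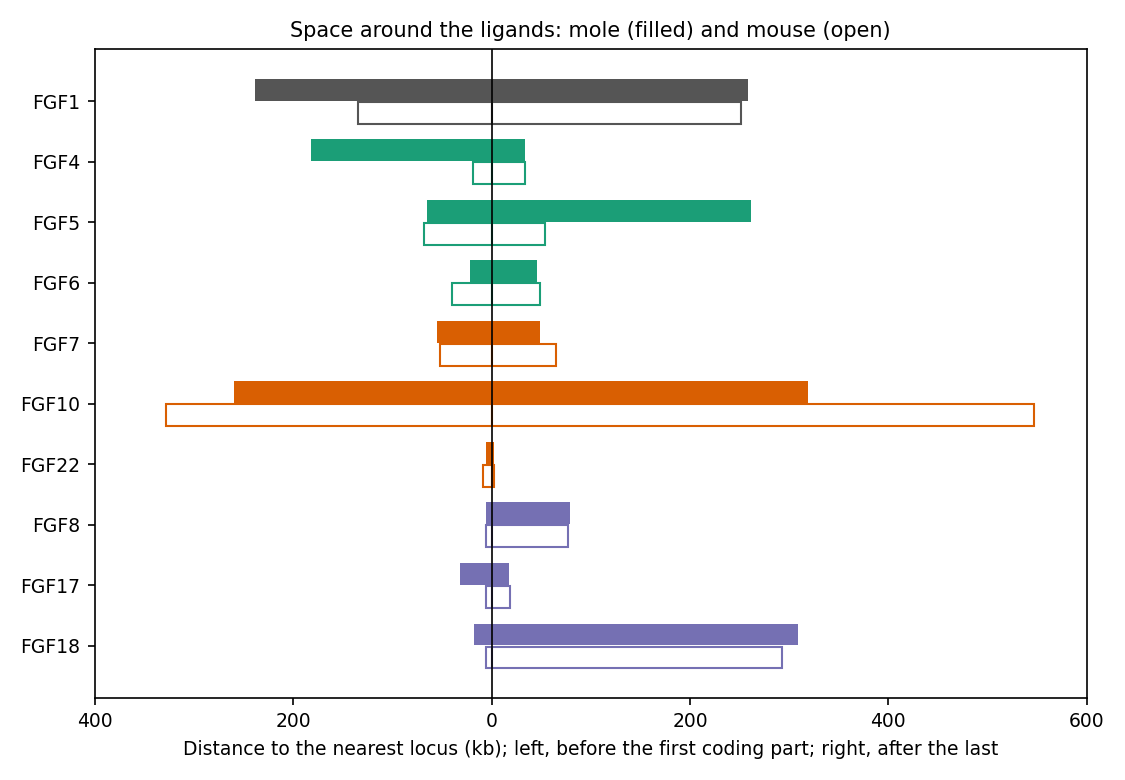
Distance in kb from each ligand to the nearest non-overlapping locus before its first coding part (left) and after its last (right), in the mole (filled) and the mouse (open), coloured by subfamily. FGF22 has the least space and FGF10 the most in both species, and the mole bar is longer by more than 1.5 times before FGF1, FGF4, FGF17 and FGF18 and after FGF5.

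Gene order around the ligands was then compared among genes with 1 locus in each of the annotations. Both neighbours were kept, with orientation, in 8 of 10 ligands against the mouse, and in 88.5% of the 12223 genes with a neighbour on each side. Against the later mole assembly, for which strand was not used, 8 of 10 kept both, beside 93.4% of 12012 genes. A share of 8 in 10 is near both backgrounds and is no result about the ligands. FGF1 lay between NR3C1 and SPRY4, FGF5 between BMP3 and PRDM8, FGF6 between DYRK4 and FGF23, FGF7 between DTWD1 and FAM227B, and FGF10 between PAIP1 and MRPS30. FGF22 lay between HCN2 and RNF126, FGF8 between FBXW4 and NPM3, and FGF18 between TLX3 and SMIM23. FGF23, the hormone of phosphate balance, was 45.5 kb from FGF6 in the mole and 48.9 kb in the mouse.

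The ligands that kept 1 neighbour were FGF4 and FGF17, and the missing neighbours were short models elsewhere. The mouse neighbour of Fgf4 in this set was Ccnd1, encoding cyclin D1. The mole locus named CCND1 lay on scaffold 10 from 435508 to 435801, with 2 parts and 264 coding bases, and TPCN2 took its place beside FGF4. The mouse neighbour of Fgf17 was Npm2, an egg chromatin factor. The mole locus named NPM2 was a single part of 603 bases, from 626 to 1228 on scaffold 7223, whose last annotated base was 1228. DOK2 took its place beside FGF17. When a pair was allowed to lie within 3 genes of each other in the mouse, all 10 ligands kept both neighbours, as did 90.8% of genes. Whether the models named CCND1 and NPM2 are those genes was not tested.

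Most of the other genes listed for the FGF pathway had a locus under their name. Of a list of 30 genes, 26 did. No share over all known genes was computed beside this, nor for the other FGF genes below. The median of the 26 was 6.5 coding parts, 1434 coding bases and 1.41 per aligned base, beside 8 parts, 1308 bases and 1.25 in all named genes. Of the 5 receptor genes FGFR1, FGFR2, FGFR3 and FGFR4 had 1 locus each, with 18, 17, 7 and 17 coding parts. FGFR3 had the fewest parts and the smallest aligned share of the 4 at 70.7%, and FGFRL1, encoding a receptor without a kinase, had no locus under its name. Both klotho co-receptors, KL and KLB, and all 8 adaptors and kinases had a locus. Among the 9 feedback inhibitors 8 did, and SPRY1 did not. The carriers FGFBP2 and FGFBP3, which bind and mobilize secreted ligands, had none, so 1 of 3 carriers was found.

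Several loci were found for 5 of the 26 pathway genes with a locus and for 0 of the 10 ligands. A single locus was the rule in the file, at 85.4% of symbols, so the ligands' 10 of 10 is near the background. The 5 were FGFBP1, the adaptor-linked exchange factor gene SOS1, the phospholipase gene PLCG1, and ETV1 and ETV5, which encode transcription factors that respond to FGF signalling. Of the 12 other FGF genes 9 had a locus and FGF2, FGF3 and FGF19 had none under their names. These were not searched for among models without a symbol.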

How the data were processed

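The 35 libraries of mole and mouse gonads were sorted into 16 groups by sample title, and 0 columns of per-sample values were left unused, because the file holds none. STAR 2.6.1d and the build mm9 stand in the submitters' processing notes without a role. The 1 deposited file is a gene annotation of talOcc3 with 23336 gene lines labelled EVM, exonerate or ALN, 21490 of them with a symbol. Start and end were used as 1-based positions in bases, as the file gives them. The authors deposited a score for each transcript model, beside the reference interval and the model interval aligned to it. For models and scores, the method is not stated in the labels or the header.

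The 10 members and the lists were chosen with earlier results of these data known, and the named genes were the members, their nearest loci, their neighbours among genes named once in both annotations, and list members at 0 or several loci. The receptors, other FGF genes and further loci beside FGF4, FGF5 and FGF17 were named after their values were seen. Python 3.11.15, numpy 2.4.6 and matplotlib 3.10.9 were used. Gene lines were matched to transcripts and their coding parts; the best-scoring locus stood for a symbol. Aligned share is the model interval over coding length. Score per aligned base is the score over the reference interval. Mouse values are coding parts of GENCODE M21 (GRCm38), from the transcript with the best APPRIS principal tag, and neighbour distances there use coding spans. The later mole assembly served only for names and order, its sequence boundaries inferred from where start positions fall back. No coordinate was converted between builds. On simulated data, 336 of 336 broken adjacencies among 13825 genes were found with 0 others, and 200 gene models gave 0 wrong lengths. Alternatives concerned names, score, merged parts, backgrounds, short introns, neighbour kind, score and coverage scale and order; the mouse transcript choice was added after seeing the data.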

Additional observations from a re-analysis of the deposited data

How the results depend on the processing

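No paired analysis was possible because gene models were compared and no libraries, so depth entered no calculation. A value was taken as kept when it stayed within 1.5 times. Of 56 alternative values 47 did, 21 of them equal to the reported value. Some of these had little or no room to move. Each ligand had 1 locus with the highest score, so the score limit could change nothing. Looser order rules against the mouse can only raise the count of neighbours kept. A change of background scales all subfamilies by the same factor. Among the 47, dividing the score by coding length took FGF4/5/6 from 1.11 to 0.947 times the named-gene median, from above it to below. Coverage was also taken as the reference interval in bases in place of that interval as a percent of coding length. Its ratios to the named-gene median were 0.42 for FGF1, 0.524 for FGF4/5/6, and 0.522 for each of FGF7/10/22, FGF8/17/18 and all 10 ligands. With the percent they were 1.03, 0.94, 1.02, 0.92 and 0.94. Bases scale with the length of a gene. The aligned share reported above uses the model interval instead and was not itself varied. With neighbours on the same strand only, which are fewer by construction, space was 885 kb at FGF1 and 326 kb in FGF4/5/6. With the larger side only it was 259 kb at FGF1 and 55.5 kb in FGF7/10/22. Merging parts up to 30 bases apart and leaving out introns of that size tested nothing in the ligands, whose shortest intron had 69 bases. The longest mouse coding transcript gave 14 introns within 1.5 times, as reported. A median over 3 genes moves with each gene.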
